A study of Bos taurus with 12 samples.

Results

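A group of 265 long noncoding RNAs (lncRNAs), of 7035 measured in bovine intramuscular preadipocytes, stood high at 3 d of adipogenic induction and low at 0, 6 and 9 d. They were chosen by their values: the lowest of the 3 libraries of 3 d had to reach 0.5 FPKM (fragments mapped to a transcript, scaled for its length and for the mapped reads of the library) and at least 2 times the highest of the 9 libraries of the other days. The height at 3 d is therefore a description of how the group was made and was not tested. The cells, precursors of the fat cells within muscle, had been isolated from newborn Qinchuan cattle (longissimus dorsi) and were sampled with 3 libraries a day. The 0 d libraries are uninduced cells grown in medium with serum. Once close to confluence, the other cultures received IBMX (0.5 mM), dexamethasone and insulin (5 µg/mL) for 48 h, then insulin alone, so that the 3 d cells had left the full cocktail 1 day earlier. The study's methods call the 3 libraries of a day biological replicates. These doses are those of the sample labels, and the study's methods give insulin at a higher one. For dexamethasone the labels give a unit that cannot be right. The methods state a dose for it, which is not repeated here. All values come from cells in culture, and a change in the share of a cell type cannot be told apart from a change in RNA per cell.

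Long noncoding RNAs are transcripts without a long reading frame. Many are present at a few copies per cell, are transcribed close to other genes and act, where a role is known, on chromatin, on splicing or by binding proteins and miRNAs. In adipogenic induction, dexamethasone activates the glucocorticoid receptor, IBMX blocks the breakdown of cAMP and insulin drives glucose uptake and lipid synthesis. The early response to these agents precedes the lipid-storing programme of PPARG and CEBPA.

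The group holds 3 of the 10 lncRNAs of the study's network of competing endogenous RNAs, in which RNAs are proposed to share miRNAs: MSTRG.11531.1, MSTRG.20301.1 and MSTRG.20342.1. The names are those of the assembly, with a locus number and a transcript number. The study measured MSTRG.20301.1 and MSTRG.20342.1 by qRT-PCR and reports that the trends of the genes it assayed closely followed its RNA-seq. The primer sequences, 20 bases each, are the only sequences for members used here. They are shown because they mark the piece of each transcript that this assay reads. They are written 5′ to 3′, in lower case throughout, with each reverse primer on the strand opposite to its forward primer.
MSTRG.20301.1 forward: ttttcatctgagggtcgggc
MSTRG.20301.1 reverse: tcggacctcaaatacagccg
MSTRG.20342.1 forward: aggcagcccacagattactg
MSTRG.20342.1 reverse: aatgctgtgccagtctgtga

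MSTRG.20301.1 stood at 1.53, 0.54 and 0.50 FPKM in the 3 libraries of 3 d and at 0 to 0.07 FPKM in the other 9. Its lowest 3 d value lies on the floor of the rule, and its first 3 d library was 2.94 times the mean of the other two. MSTRG.20342.1 read 4.38, 2.06 and 1.2 FPKM at 3 d. Elsewhere it was highest in the first 6 d library (0.43 FPKM) and lowest in the third 0 d library (0.03 FPKM). MSTRG.11531.1 read 2.1, 0.97 and 0.98 FPKM at 3 d against 0.08 to 0.29 FPKM on the other days. In all 3 of these lncRNAs the first 3 d library was the highest. Of the other 7 lncRNAs of the network, MSTRG.11050.1 came nearest to the group, with 4.13, 3.23 and 0.39 FPKM at 3 d and at most 0.28 FPKM elsewhere, and missed it through the third library.

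The libraries were not level before any choice. The median over all lncRNAs was 1.46 FPKM in the first 3 d library, against 0.88 and 0.86 FPKM in the other two. At 0 d the second library stood above the others, with 1.03 FPKM against 0.73 and 0.58 FPKM. At 6 d the medians were 0.79, 0.65 and 0.60 FPKM, and at 9 d 0.68, 0.60 and 0.56 FPKM. The members had medians of 2.1, 1.59 and 1.59 FPKM at 3 d, and of 0.17 to 0.29 FPKM in the other 9 libraries. With FPKM rescaled between libraries by the median ratio of the lncRNAs, 146 lncRNAs met the rule, 137 of them among the 265. Rescaled by the median ratio of the mRNAs, 248 did, with 236 shared. The number of members therefore depends on whether differences in lncRNA level between libraries, within a day and between days, are kept or divided out.

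**Figure D1:**
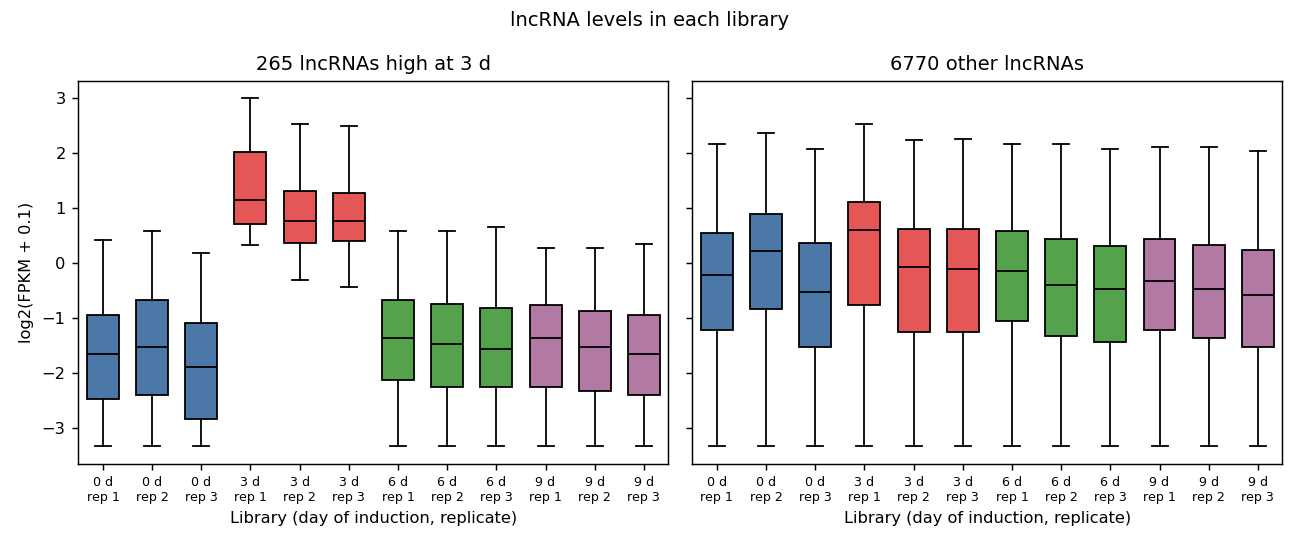
Levels of the 265 members (left) and the 6770 other lncRNAs (right) in each of the 12 libraries, as log2(FPKM + 0.1). Boxes span the quartiles with the median as a line, and whiskers reach the 5th and 95th percentiles; the members are high in all 3 libraries of 3 d by choice, and the first 3 d library is the highest also among the other lncRNAs.

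Most members were low in abundance even at 3 d. Their mean 3 d level had a median of 1.74 FPKM (quartiles 1.35 and 2.88), against 1.08 FPKM over all lncRNAs. It was under 1 FPKM for 11 members, from 1 to under 5 FPKM for 232, and at least 5 FPKM for 22, of which 8 reached 10 FPKM. Together the members summed to 1002, 739 and 682 FPKM in the 3 d libraries, or 1.06%, 1.08% and 1.04% of all lncRNA FPKM. On the other days they made up 0.14% to 0.291%. The share at 3 d was nearly level although the first library's sum was higher.

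The ratio of the lowest 3 d value to the highest other value had a median of 2.83. It was under 3 for 149 members, at least 5 for 47 and at least 10 for 19, leaving aside 2 members listed at 0 in all 9 other libraries. On the edge of the rule, MSTRG.13816.1, MSTRG.25130.1 and MSTRG.25449.1 sat at a ratio of 2. Just outside were MSTRG.8866.1 (1.99), MSTRG.7704.1 (1.99) and MSTRG.12228.1 (1.99). MSTRG.8866.1 read 7.37, 2.37 and 2.50 FPKM at 3 d and up to 1.19 FPKM elsewhere. The member MSTRG.25130.1 read 1.69, 1.88 and 1.62 FPKM at 3 d and up to 0.81 FPKM elsewhere. The ratios of these 2 lncRNAs differ by no more than the rounding of the values can produce. On the floor, MSTRG.895.3, MSTRG.20301.1 and MSTRG.25449.1 had a lowest 3 d value of 0.50 FPKM. Below it were MSTRG.18525.1 (0.48 FPKM), MSTRG.3064.1 (0.46 FPKM) and MSTRG.15354.1 (0.46 FPKM). With a ratio of 3 in place of 2 the group would hold 116 lncRNAs, and with 1.5 it would hold 531.

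**Figure D2:**
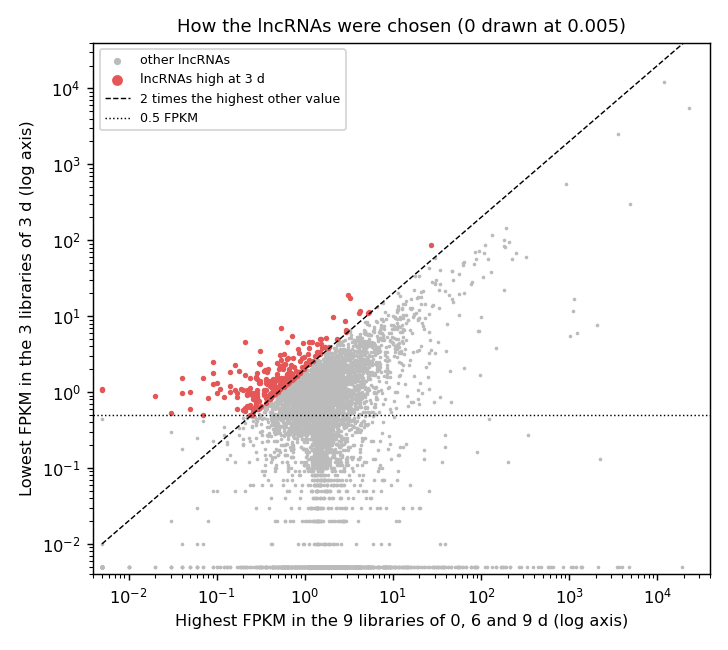
Each point is 1 of the 7035 lncRNAs, with its highest FPKM among the 9 libraries of 0, 6 and 9 d on the x axis and its lowest FPKM among the 3 libraries of 3 d on the y axis (both log axes, 0 drawn at 0.005). The 265 members lie above both lines, and many of them lie close to the line of 2 times the highest other value, where 149 have a ratio under 3.

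The most abundant member was MSTRG.4186.1, with 162.87, 142.93 and 86.35 FPKM at 3 d and 6.25 to 26.89 FPKM on the other days. It ranked 32nd among all lncRNAs by mean 3 d level, and its highest other value came from the third 9 d library. The next, MSTRG.16187.2, was far more even: 22.21, 19.22 and 20.85 FPKM at 3 d, and 2.14 to 3.11 FPKM elsewhere. A transcript of the same locus, MSTRG.16187.1, read 10.2, 9.82 and 10.19 FPKM at 3 d and 1.62 to 2.08 FPKM elsewhere. These 2 transcripts kept a narrow spread on every day.

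MSTRG.3767.1 had 18.13, 17.55 and 20.01 FPKM at 3 d but a wide spread on the other days, from 0.17 FPKM in the second 0 d library to 3.28 FPKM in the third 9 d library. MSTRG.22366.1 combined an even 3 d level (7.89, 8.13 and 6.93 FPKM) with 0.29 to 0.54 FPKM elsewhere. MSTRG.478.1 read 10.61, 8.77 and 8.61 FPKM at 3 d, and its level elsewhere, 1.53 to 2.84 FPKM, was among the higher ones of the group. MSTRG.10280.1 (20.96, 12.23 and 11.75 FPKM) and MSTRG.14833.1 (19.80, 11.18 and 11.29 FPKM) stood higher in the first 3 d library. The 10 most abundant members are completed by MSTRG.14331.1 and MSTRG.6582.1, described below with the days other than 3 d.

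At the other end were lncRNAs listed at or near 0 outside 3 d. MSTRG.5144.1 was listed at 0 in all 9 other libraries and at 1.2, 1.09 and 1.56 FPKM at 3 d. MSTRG.20293.2 was likewise listed at 0 in all 9, with 1.48, 1.06 and 1.51 FPKM at 3 d. No fold is given for these 2, since FPKM carry no count from which a lower limit could be set.

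Among the rest, the largest ratios divide by a few hundredths of 1 FPKM, so that the rounding of the values leaves their size and order open. As listed, MSTRG.5140.1 (44.5) comes first, with 1.61, 0.89 and 0.96 FPKM at 3 d and at most 0.02 FPKM elsewhere. MSTRG.13883.1 (37.8) and the next locus, MSTRG.13884.1 (20.0), were listed at 0 in all 0 d libraries and stayed at or under 0.05 FPKM at 6 and 9 d. MSTRG.19454.1 reached 5.95, 4.50 and 4.61 FPKM at 3 d, the highest level among those with the 10 largest ratios, against 0 to 0.21 FPKM elsewhere. MSTRG.20646.1 (21.6) read 2.18, 2.29 and 1.51 FPKM at 3 d. The other members with the 10 largest ratios, MSTRG.5138.1, MSTRG.5141.1, MSTRG.5137.1, MSTRG.20298.1 and MSTRG.5134.1, belong to stretches of neighbouring loci.

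What the rule did not use was position. Locus numbers follow the order of the assembly, and the assembly's own transcript index rises with them (Spearman rho = 0.999999 across the 7035 lncRNAs). Neither distance nor chromosome is known from the numbers. Members came from 262 of 6214 lncRNA loci, which is 4.22%. Taken from each member locus in turn, 209 lncRNA neighbours bore the next number up or down, and 96 of these (45.9%) were themselves member loci, a locus between a pair of members being counted from both sides. Taken from the other lncRNA loci, 113 of 4269 such neighbours (2.65%) were member loci. In all, 80 member loci lay in 32 runs of consecutive numbers, 10 of them with 3 or more loci. No test was made of this clustering. Whether the members of a run belong to 1 transcribed region was not tested, and they are not counted as independent.

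The longest run lay in the stretch of loci 5134 to 5144. It holds 8 member loci among 9 lncRNA loci, and the run itself has the 6 loci 5136 to 5141. MSTRG.5138.1 read 5.67, 2.73 and 2.52 FPKM at 3 d and at most 0.09 FPKM elsewhere. MSTRG.5136.1 read 4.56, 0.60 and 0.80 FPKM at 3 d, and MSTRG.5139.1 read 6.44, 1.29 and 1.60 FPKM. All 6 members of the run were highest in the first 3 d library, by 1.74 to 6.51 times the mean of the other two. Outside 3 d the highest value of the run was 0.63 FPKM, in MSTRG.5139.1 and the first 6 d library, and all its other values outside 3 d were at most 0.09 FPKM. The 2 lncRNAs of the stretch outside the group were likewise listed at 0 in the 9 other libraries. MSTRG.5143.1 missed the floor with 0.44 FPKM in its second 3 d library, and MSTRG.5134.2, a further transcript of a member locus, with 0 FPKM in its first.

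A second stretch spans loci 20291 to 20304, with 8 member loci among 10. Its members fell into differing replicate patterns. MSTRG.20291.2 (1.51, 0.99 and 1.78 FPKM), MSTRG.20292.1 (2.58, 2.17 and 2.27 FPKM) and MSTRG.20293.2 were at most 1.16 times higher in the first 3 d library than in the mean of the other two. MSTRG.20291.2 was highest in the third library. In the run 20301 to 20304, MSTRG.20302.1 was even (1.40, 1.28 and 1.2 FPKM), while MSTRG.20301.1, MSTRG.20303.1 and MSTRG.20304.1 were 2.04 to 2.94 times higher in the first library than in the mean of the others. MSTRG.20293.1, MSTRG.20296.1 and MSTRG.20297.1, outside the group, had 3 d values of 0.25 to 1.5 FPKM and at most 0.07 FPKM elsewhere.

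The stretch 20341 to 20347 consisted of members only, 6 of 6 lncRNA loci. MSTRG.20341.1, MSTRG.20342.1, MSTRG.20343.1 and MSTRG.20344.1 shared 3.57 to 4.59 FPKM in the first 3 d library and 1.2 to 2.46 FPKM in the other two. MSTRG.20346.1 (1.59, 1.28 and 1.11 FPKM) and MSTRG.20347.1 (1.09, 1.37 and 0.92 FPKM) were lower and more even at 3 d. Loci 8125 to 8134 were likewise members in 7 of 7 lncRNA loci, with MSTRG.8125.1, MSTRG.8126.1 and MSTRG.8127.1 as a run.

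In loci 7708 to 7719, only 5 of 11 lncRNA loci passed the rule, although all 11 transcripts were higher in every 3 d library than in any other. MSTRG.7714.1, outside the group, had 15.75, 4.68 and 5.55 FPKM at 3 d and up to 2.73 FPKM elsewhere, in the second 0 d library. MSTRG.7711.1, inside it, had 10.54, 3.81 and 4.39 FPKM at 3 d and 1.81 FPKM in the same 0 d library. Loci 10275 to 10293 held 6 member loci among 9, with MSTRG.10275.1, MSTRG.10276.1 and MSTRG.10277.1 as a run (0.97 to 2.13 FPKM at 3 d). There MSTRG.10282.1 kept 3.19 to 3.84 FPKM at 9 d against 4.73 to 5.67 FPKM at 3 d and stayed outside. The remaining runs of 3 or more loci were 3217 to 3220 (4 members), 4084 to 4086, 18713 to 18715 and 23817 to 23819 (3 each). The highest member mean among them was that of MSTRG.23817.1, with 7.53, 7.87 and 5.10 FPKM at 3 d.

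**Figure D3:**
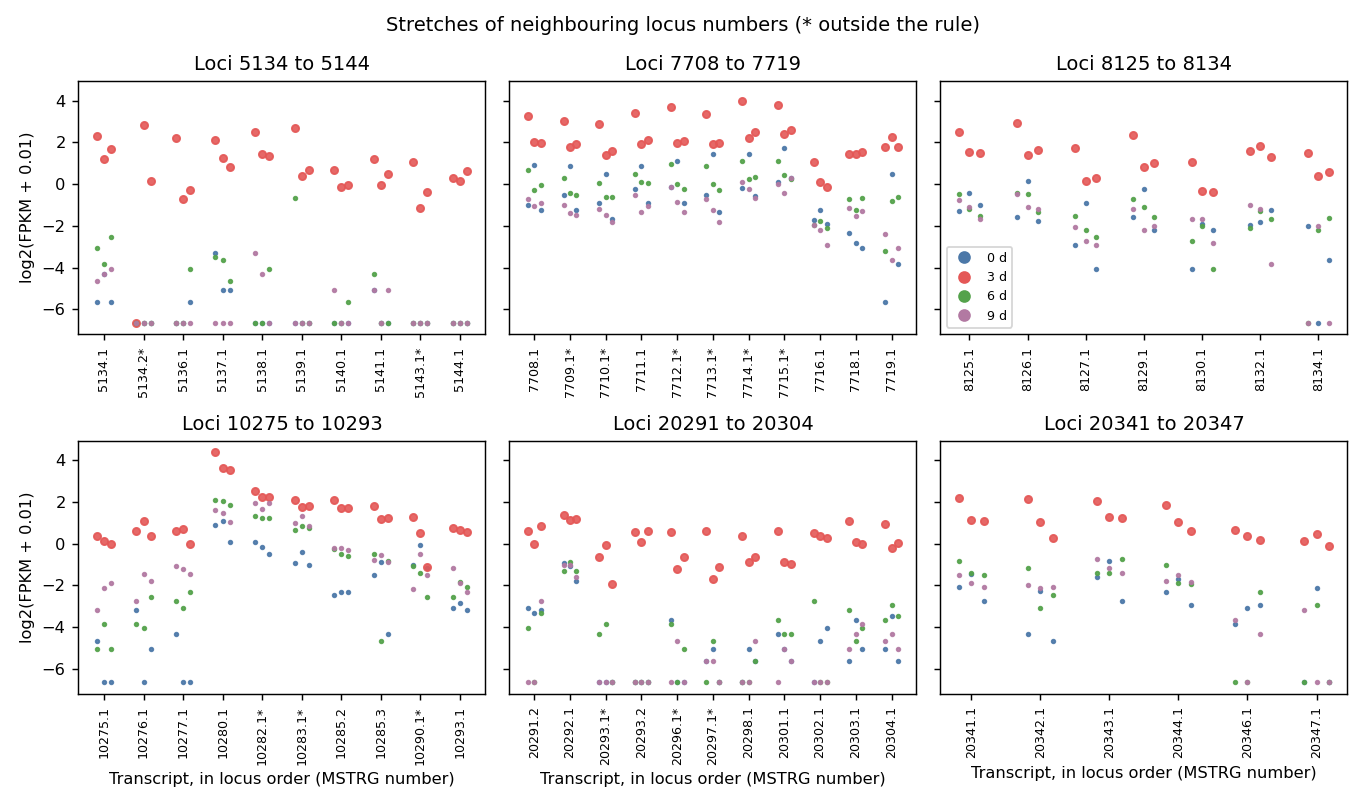
Values in all 12 libraries, as log2(FPKM + 0.01), of every lncRNA in the 6 stretches with at least 5 member loci, each no more than 10 numbers from the next, in the order of their locus numbers. Each transcript has 3 positions, 1 for each replicate number, and the 4 days are coloured; an asterisk marks transcripts outside the rule, such as MSTRG.7714.1, whose 3 d values lie above all its others but by less than the rule asks.

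Most member loci had a single lncRNA transcript (246 of 262, or 93.9%, against 93.8% of all lncRNA loci). A pair of transcripts were members at each of 3 loci: MSTRG.6543.1 with MSTRG.6543.2, MSTRG.10285.2 with MSTRG.10285.3, and the pair of locus 16187. MSTRG.6543.2 read 4.55, 4.57 and 4.94 FPKM at 3 d, while at 0 d it ranged from 0 to 1.07 FPKM. At 14 member loci, 22 further transcripts stayed outside the rule. Of these, 17 (77.3%) still had their highest mean at 3 d, beside 48.9% of the 6748 transcripts of loci without members, and 7 (31.8%) had every 3 d value above every other value, beside 14.8%. MSTRG.5134.2 was listed at 0 in the first 3 d library, at 7.08 and 1.10 FPKM in the others and at 0 on all other days. Others did not follow the members of their locus. MSTRG.6634.2 had 2.42 and 2.30 FPKM in 2 of the 6 d libraries and 0.02 to 0.83 FPKM at 3 d. The split of reads between transcripts of a locus is an estimate, so that the values of such transcripts are not separate measurements.

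The members differed in how even they were across the 3 d libraries. The first library was the highest for 192 of 265 (72.5%), close to the 70.1% among all 4103 lncRNAs that reached 0.5 FPKM in every 3 d library. It exceeded the mean of the other two by at least 2 times in 58 members (21.9%, against 20.7% of the 4103), while 108 members lay between 0.8 and 1.25 times. These differences went along with those at 0 d. Among the 182 members above 0 in all 12 libraries, the log2 excess of the first 3 d library and that of the second 0 d library correlated across transcripts with a Pearson r of 0.43 and a Spearman rho of 0.51. Across all 3770 lncRNAs past the floor and above 0 everywhere the values were 0.39 and 0.51. Transcripts share libraries and neighbours, and they are not independent points. Members at least 2 times higher in the first 3 d library had a median 0 d excess of 2.23 times in the second library (36 members), and those under 1.25 times one of 1.09 times (82 members). Over all 3770 lncRNAs these medians were nearly the same, 2.24 and 1.08 times, so that they describe the libraries and not the members alone. The part of these libraries in the members' values was not tested beyond leaving them out: without the first 3 d library 290 lncRNAs met the rule, and without the second 0 d library 332, in both cases with all 265 among them, as the rule then asks less.

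**Figure D4:**
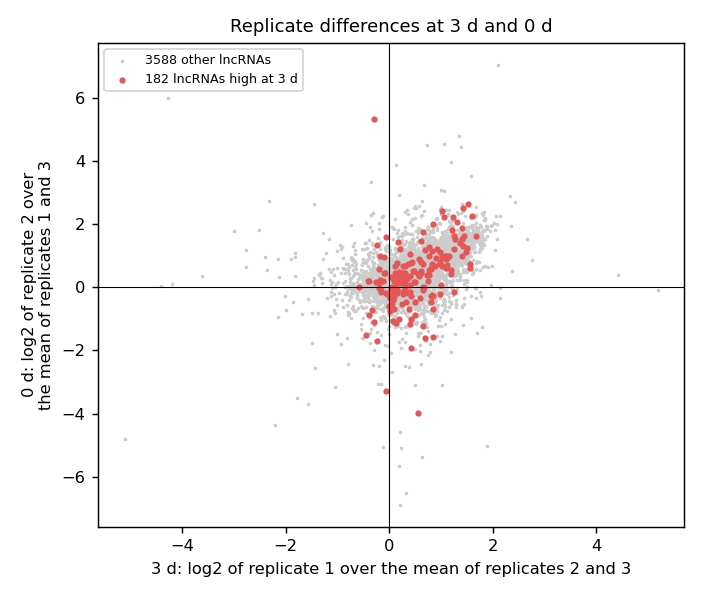
For each lncRNA with at least 0.5 FPKM in every 3 d library and above 0 in all 12, the log2 ratio of the first 3 d library to the mean of the other two (x axis) and of the second 0 d library to the mean of the other two (y axis). The 182 members (red) spread over the same range as most of the 3588 others (grey), with a Pearson r of 0.43 among the members.

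The days other than 3 d were compared with each other to ask whether the members returned to where they had started. The rule capped the highest of these 9 libraries, which did not bear evenly on the days. That highest library was the second of 0 d for 56 members. Without it 332 lncRNAs met the rule, and 274 to 283 met it with any 1 library of 9 d left out. The shares and medians of the members below thus rest on values used in the choice. Beside those of all lncRNAs they are descriptions only. Tests were made with limma on log2(FPKM + 0.1) over all lncRNAs with a mean of at least 0.1 FPKM. An lncRNA was called where its log2 fold change passed 1 in size with a Benjamini-Hochberg adjusted p under 0.05. All 265 members passed the filter, 41 of them only through their 3 d values. Shares and medians are therefore given over the 224 members and 6758 lncRNAs that passed it on the 9 libraries of 0, 6 and 9 d, and calls over all 265. On this scale the changes of low lncRNAs are understated.

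From 0 d to 6 d, 14 members were called higher and 3 lower, as were 3.11% and 3.26% of the 6906 lncRNAs tested. Among the lncRNAs that passed without 3 d these were 6.25% and 1.34% of the members, beside 3.17% and 3.33%. The median log2 difference was 0.15 over the members, whose values the rule had capped, and -0.15 over the lncRNAs. With FPKM rescaled by the median ratio these medians were 0.27 and -0.01. Then 21 members (9.38%) were called higher, beside 4.84% of the lncRNAs, and 3 (1.34%) lower, beside 3.47%. Over the days other than 3 d, the highest mean of the 224 members fell on 6 d for 90 (40.2%), on 0 d for 71 (31.7%) and on 9 d for 62 (27.7%), with 1 tied, beside 28.4%, 50.6% and 20.7% of the 6758 lncRNAs. The rule had capped these values in the members alone, so that the gap between the shares is no result about the members. Height at 3 d alone thus holds by the ratio of the rule, which leaves room for differences among the other days. The count of 14 rests on the settings, with 2 called higher at a pseudocount of 1.

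MSTRG.14331.1 was the clearest of these. It read 0.44, 0.52 and 0.29 FPKM at 0 d, stood at 17.07, 10.97 and 11.32 FPKM at 3 d and was still at 5.20, 5.00 and 3.86 FPKM at 6 d, before 0.98, 0.97 and 1.13 FPKM at 9 d. The days did not overlap. The log2 difference was 3.23 ± 0.231 (SE, limma adjusted p = 6.13e-05) for 6 d against 0 d and -2.08 ± 0.231 (limma adjusted p = 0.00323) for 9 d against 6 d, and both calls held under every alternative tried. MSTRG.20831.1 and the next locus, MSTRG.20832.1, were also called higher at 6 d. MSTRG.20831.1 stood at 0.02 to 0.09 FPKM at 0 d, at 1.19 to 1.41 FPKM at 6 d (3.09 ± 0.328, limma adjusted p = 0.00041) and at 0.30 to 0.37 FPKM at 9 d. MSTRG.20832.1 stood at 0 to 0.08 FPKM at 0 d and at 0.59 to 0.97 FPKM at 6 d (2.55 ± 0.365, limma adjusted p = 0.00203), and its fall to 0.19 to 0.28 FPKM at 9 d was not called. MSTRG.13965.1 was listed at 0 in all 0 d libraries and read 0.66, 0.53 and 0.40 FPKM at 6 d.

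Fewer members moved the other way. MSTRG.6336.1 read 0.96, 0.77 and 0.74 FPKM at 0 d, 6.45, 4.49 and 5.25 FPKM at 3 d and only 0.17, 0.12 and 0.15 FPKM at 6 d, then 0.56, 0.92 and 0.86 FPKM at 9 d. Its 6 d values lay below all those of 0 d (log2 difference -1.90 ± 0.241, limma adjusted p = 0.00109) and of 9 d. MSTRG.6327.1, with 0.49 to 0.72 FPKM at 0 d, 0 to 0.13 FPKM at 6 d and 0.29 to 0.71 FPKM at 9 d, showed the same dip after 3 d. MSTRG.10516.1 (limma adjusted p = 0.0423) was also called lower and lost its call under 8 of the alternatives, the replicate block among them. With a pseudocount of 1 only 2 members were called for 6 d against 0 d, both of them higher. MSTRG.6336.1 and MSTRG.6327.1 thus lost their calls there. With only the 6 libraries compared, MSTRG.6327.1 lost its call at the same log2 difference of -2.19 (limma adjusted p = 0.0509).

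From 0 d to 9 d, 8 members were called higher and 2 lower, as were 2.95% and 3.84% of all lncRNAs tested. Among those that passed without 3 d these were 3.57% and 0.893% of the members, beside 3.06% and 3.95%. The share called higher was thus near the background on the deposited scale. The median log2 difference was -0.01 over the members and -0.26 over the lncRNAs. After rescaling the medians were 0.22 and -0.01, and the share called higher lay above the background: 23 members (10.3%), beside 5.36%, with 1 (0.446%) lower, beside 3.01%. The members had been chosen on the deposited values of these days, and 137 of the 265 met the rule after rescaling. These shares are therefore not read as a result about the members. MSTRG.12364.1 kept a raised level on both later days, with 0.01 to 0.05 FPKM at 0 d, 0.50 to 0.66 FPKM at 6 d and 0.53 to 0.74 FPKM at 9 d (9 d against 0 d 2.62 ± 0.308, limma adjusted p = 0.000829). MSTRG.7800.1 (0.03 to 0.27 FPKM at 0 d, 1.08 to 1.11 FPKM at 9 d) and MSTRG.10285.2 (0.17 to 0.19 and 0.79 to 0.86 FPKM) were the same in this respect. At a pseudocount of 1, MSTRG.12364.1, MSTRG.7800.1 and MSTRG.10285.2 lost their calls. MSTRG.7800.1 lost its call also with only the 6 libraries compared, at the same log2 difference of 2.24 (limma adjusted p = 0.0685). MSTRG.10277.1 and MSTRG.16897.1 complete the 5 called members with the largest rise, the latter losing its call without replicate 1 or replicate 3 of 0 d or of 9 d. The 2 called lower were MSTRG.6582.1, at 2.44 to 4.13 FPKM at 0 d and 1.10 to 1.33 FPKM at 9 d (-1.34 ± 0.205, limma adjusted p = 0.0033), and MSTRG.17419.1, whose log2 difference of -1.04 lies next to the threshold. Without the third 9 d library 6 members were called in all.

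From 6 d to 9 d, 2 members were called higher and 7 lower, as were 0.825% and 1.09% of all lncRNAs tested. Among those that passed without 3 d these were 0.893% and 3.12% of the members, beside 0.843% and 1.09%. Those called higher were MSTRG.6336.1 and MSTRG.6327.1, which had dipped at 6 d. Among those called lower were MSTRG.14331.1, MSTRG.13965.1, MSTRG.20831.1 and the neighbouring loci MSTRG.5458.1 and MSTRG.5459.1. MSTRG.5458.1 was listed at 0 in all 0 d libraries, read 5.30, 4.53 and 4.68 FPKM at 3 d, 0.34, 0.41 and 0.63 FPKM at 6 d and 0.03, 0.10 and 0.09 FPKM at 9 d. This comparison was the least stable: leaving out any 1 of its 6 libraries brought the count of 9 calls down to 3, or to 2 without the second 6 d library. The call of MSTRG.14331.1 held under all alternatives and that of MSTRG.6336.1 under all but the pseudocount of 1, while the other 5 members named here each lost theirs under 7 to 9 alternatives. The 3 comparisons share libraries and are not independent of each other.

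**Figure D5:**
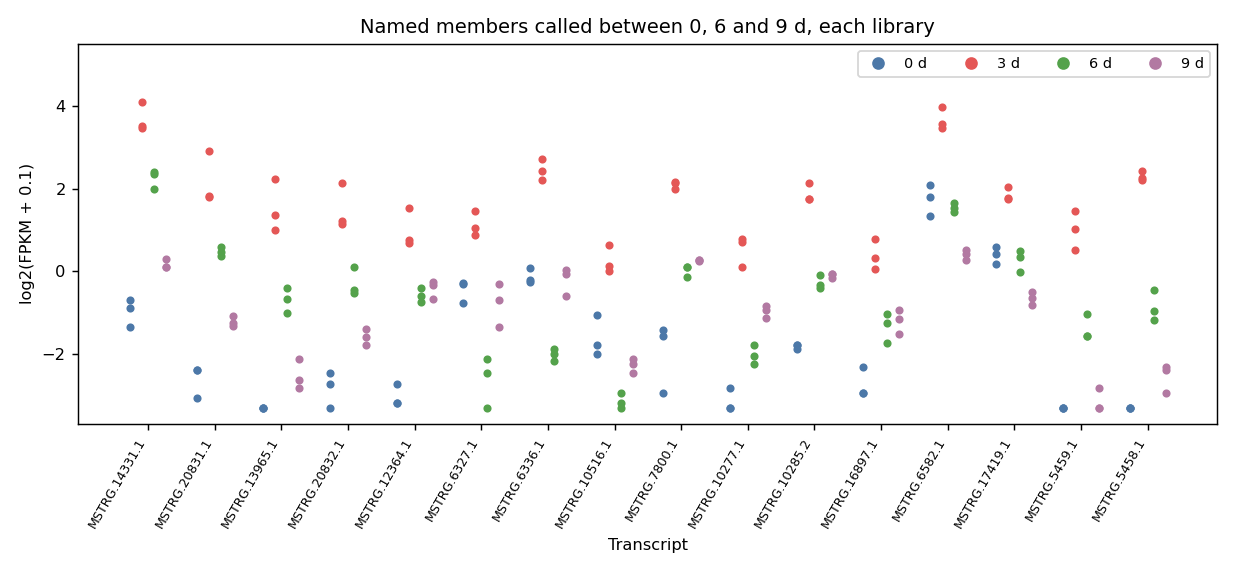
The 16 members named for a call between 0, 6 and 9 d, with each of the 12 libraries as a point coloured by day, as log2(FPKM + 0.1). MSTRG.14331.1, MSTRG.20831.1 and MSTRG.13965.1 are highest at 3 d, lower at 6 d and lower again at 9 d, MSTRG.6336.1 and MSTRG.6327.1 are lowest at 6 d, and MSTRG.12364.1, MSTRG.7800.1 and MSTRG.10285.2 keep a level above that of 0 d at 6 and 9 d.

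The same rule applied with another day in the place of 3 d picked 37 lncRNAs when it was 0 d, 19 when it was 6 d and 20 when it was 9 d. Of the mRNAs, 337 met it for 3 d and 262 for 0 d, while 31 did so for 6 d and 54 for 9 d. As a share of what reached the floor, the 3 d lncRNAs were 6.46% of 4103 and the 3 d mRNAs 2.85% of 11804. These counts describe the rule and were not tested.

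The mRNAs that answer to the agents of the cocktail were read in the same libraries, with no claim that they control the lncRNAs. Of 13 glucocorticoid response genes tested, 10 were higher at 3 d than at 0 d and 0 lower, beside 8.06% and 15.2% of the 15402 mRNAs tested. Their median log2 difference was 2.09, against -0.06 over all mRNAs. PDK4, a kinase that inhibits pyruvate dehydrogenase, went from 0.78 to 1.22 FPKM at 0 d to 61.05 to 63.87 FPKM at 3 d. It was back to at most 2.25 FPKM at 6 and 9 d. It met the rule used for the lncRNAs, as did PER1, a clock gene, GLUL, glutamine synthetase, and ANGPTL4, an inhibitor of lipoprotein lipase. ZBTB16, a transcription factor, did not, since 63.26 to 92.97 FPKM remained at 6 d beside 161.71 to 354.59 FPKM at 3 d. FKBP5, a co-chaperone of the glucocorticoid receptor, varied at 3 d from 22.73 FPKM in the second library to 113.91 FPKM in the first. TSC22D3, KLF15, DUSP1 and CEBPD were the other genes called.

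Of 12 cAMP response genes, 4 were called higher at 3 d: the phosphodiesterases PDE7B, PDE3B and PDE4D and the kinase SIK1. None was called lower, but 1 was when only the 6 libraries compared were fitted. PDE7B rose from 8.05 to 10.06 FPKM to 309.29 to 341.66 FPKM, and with PDE3B it met the lncRNA rule. PDE4D differed between replicates in the way opposite to many members, with 119.38 FPKM in the first 3 d library and 716.60 and 725.16 FPKM in the others. Of 5 nuclear retained RNAs listed, 3 had no row among the mRNAs and XIST was too low to be tested. MEG3 (69.4 FPKM at 0 d, 48.0 FPKM at 3 d) was tested and not called.

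The cells were checked against markers. Of 10 adipocyte genes with a row of their own, 6 were higher at 3 d than at 0 d, among them FABP4, a fatty acid carrier (3.02 to 3.52 and 86.15 to 94.72 FPKM), and DGAT2, an enzyme of triglyceride synthesis (mean 0.0733 and 21.8 FPKM). LEP, which encodes leptin, was lower. Not called were CEBPA (means 0.0933 FPKM at 0 d and 0.22 FPKM at 3 d), CIDEC (0.0833 and 0.13 FPKM) and FASN (log2 difference 0.96). ADIPOQ stayed under 1 FPKM on average on every day, and the most abundant of the list was FASN (mean 2970 FPKM at 3 d). The list summed to 1507 to 1621 FPKM at 0 d, 3081 to 3585 FPKM at 3 d, 2009 to 2221 FPKM at 6 d and 1755 to 2023 FPKM at 9 d. PPARG and PLIN1 share their rows with neighbouring genes and were not counted.

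Markers of other cell types moved as well. Of 8 skeletal muscle genes, 6 were lower at 3 d and 0 higher; the list summed to 827 to 941 FPKM at 0 d, 271 to 300 FPKM at 3 d, 379 to 421 FPKM at 6 d and 293 to 328 FPKM at 9 d, with DES the most abundant and MYOD1 at a mean of 268 FPKM at 0 d. Of 4 smooth muscle and pericyte genes tested, 3 were lower at 3 d, led by ACTA2, with 1641.74 to 1775.88 FPKM at 0 d, 24.58 to 28.91 FPKM at 3 d and 1503.55 to 1629.38 FPKM at 6 d. MYH11, a smooth muscle myosin, went the other way without a call, from 19.81 to 26.28 FPKM at 0 d to 51.21 to 60.62 FPKM at 3 d (log2 difference 1.3 ± 0.641, limma adjusted p = 0.118). That list summed to 1892 to 2055, 101 to 113, 2020 to 2164 and 736 to 824 FPKM on the 4 days, of which ACTA2 was the largest part at 0, 6 and 9 d and MYH11 at 3 d, and RGS5 was listed at 0 in all libraries of 0 and 3 d. Of 8 preadipocyte and fibroblast genes, 4 were higher (PDGFRA, DCN, LUM and THY1) and 3 lower (COL1A1, ENG and CD34). PDGFRA, a receptor of mesenchymal progenitors, met the lncRNA rule, with 900.38 to 962.96 FPKM at 3 d and 147.83 to 209.80 FPKM elsewhere, while COL1A1, a collagen, fell at 3 d (means 3020 and 941 FPKM). The list, most of it COL3A1, summed to 115827 to 123188, 167150 to 174970, 130341 to 134792 and 211785 to 224970 FPKM on the 4 days. Of 3 blood and immune genes tested, CD14 and CSF1R were higher at 3 d; that list was low throughout, with sums of 1.1 to 1.4 FPKM at 0 d, 3.5 to 3.7 FPKM at 3 d, 1.9 FPKM at 6 d and 2.2 to 3.4 FPKM at 9 d, and PTPRC was listed at 0 in every library. Endothelial genes summed to 2.5 to 3.7 FPKM per library. The part of these shifts in the lncRNA values was not tested.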

How the data were processed

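RNA of 12 libraries was analysed, 3 for each of 0, 3, 6 and 9 d, grouped by the sample labels. The authors deposited FPKM for lncRNAs and mRNAs. By the methods they mapped reads to the bovine genome; the submitters' processing notes name HISAT2 2.0, StringTie 1.3.0, a transcript assembler, and Bowtie 0.12.2. The notes list a mouse genome build, and the labels describe poly(A) selection where the methods describe rRNA depletion. By the methods, lncRNAs were the transcripts left once those overlapping known mRNAs or with coding potential were removed. The study classes only a part of its lncRNAs as intergenic, and the class of the members was not examined. FPKM hold no counts, so the depth behind a value is unknown. The deposited values have 2 decimals.

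Members were found with the rule given in the text. The members and the gene lists were chosen with earlier results of these data known. The FPKM are not counts, so limma 3.58.1 in R 4.3.3 (lmFit, contrasts.fit, eBayes with a trend) on log2(FPKM + 0.1) took the place of the authors' edgeR test, with 1 mean per day over all 12 libraries and a filter of a mean of at least 0.1 FPKM. It was tested on simulated data. Tables and figures used Python 3.11.15, pandas 2.3.3, NumPy 2.4.6, SciPy 1.17.1 and Matplotlib 3.10.9.

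Named members were the 10 with the highest 3 d mean, those at 0 elsewhere, the 10 with the largest ratio, 3 on each side of each threshold, runs of at least 3 loci, loci with 2 members, up to 5 called members per comparison and direction, and members of the study's network or primers. Stretches with at least 5 member loci, non-member neighbours and transcripts of member loci were named after their values were seen. The settings varied were the pseudocount (1 and 0.01), the filter (none, and a mean of at least 1 FPKM), the scaling between libraries (by the median ratio), the libraries fitted (only the 6 compared, or all but 1), a replicate block, and the floor and ratio of the rule. Rescaling by the mRNAs and a filter on the 9 libraries of 0, 6 and 9 d were added after seeing the data. Unused columns of values numbered 0 in the tables used, and the circRNA and miRNA tables were not used here.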

Additional observations from a re-analysis of the deposited data

How the results depend on the processing

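The number of members moved from 265 to 531 with a ratio of 1.5, to 116 with a ratio of 3 and to 146 with FPKM rescaled by the median ratio of the lncRNAs. It was 274 with a floor of 0.25 FPKM and 200 with a floor of 1 FPKM. Leaving out 1 library gave 269 to 380 members, since the rule then asks less. With a pseudocount of 1, 2 members were called for 6 d against 0 d, 1 for 9 d against 0 d and 1 for 9 d against 6 d, in place of 17, 10 and 9. With a pseudocount of 0.01 the last of these was 4. With a mean of at least 1 FPKM, where fewer members were tested, the first 2 were 8 and 6. For 9 d against 0 d, rescaling gave 25 calls, 24 higher and 1 lower, while the share called higher over all lncRNAs rose as well, from 2.95% to 5.26%. Of the members that passed the filter without their 3 d values, 23 were then called higher. The 6 libraries alone gave 6 calls. Leaving out 1 library gave 13 to 16 calls for 6 d against 0 d, 6 to 10 for 9 d against 0 d and 2 to 3 for 9 d against 6 d. Apart from the construction of the filter, the ratios and the omissions, the cause was not tested. Glucocorticoid response genes called higher numbered 10 under every alternative. Of the cAMP response genes 4 were called higher, or 5 with rescaling or without the third 3 d library, and with only the 6 libraries 4 were called higher and 1 lower. With the filter taken on the 9 libraries of 0, 6 and 9 d, 224 members were tested and the calls numbered 17, 10 and 9. Of the values of named members under alternatives, 226 kept their call, 71 lost it and 0 changed direction.

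With a replicate block, 18 members were called for 6 d against 0 d, 11 for 9 d against 0 d and 6 for 9 d against 6 d. For libraries sharing a number, the correlation of their deviations from the day means across lncRNAs was -0.111 to 0.0767 over 18 pairs. Over 36 pairs with differing numbers it was -0.149 to 0.14. Correlations this weak in both sets cannot decide whether libraries sharing a number come from the same cells. The mRNAs neighbouring the members were not analysed, since the mRNA values carry no locus numbers, and no alternative was run for them.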

Other observations

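lncRNAs next to the members, by locus number, also stood higher at 3 d without passing the rule. The transcripts above 0 in at least 1 of the 9 other libraries were counted, which leaves out 5 at adjacent loci and 69 elsewhere. Over the 121 so counted at adjacent loci outside the group, the ratio of the 3 d mean to the mean of the other 9 libraries had a median of 3.00, and 59 (48.8%) had every 3 d value above every other value. Over the 6553 so counted at loci neither in the group nor next to it, the median ratio was 1.26 and 938 (14.3%) had every 3 d value above every other value. MSTRG.7709.1, MSTRG.7710.1, MSTRG.7712.1, MSTRG.7713.1 and MSTRG.7715.1, which lie between members, had first-library 3 d values of 8.24, 7.31, 13.03, 10.10 and 14.06 FPKM and second-library 0 d values of 1.80, 1.40, 2.14, 2.74 and 3.35 FPKM. Without that 0 d library all but MSTRG.7712.1 would pass the rule, which its first 6 d library (1.96 FPKM) would still keep outside.

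Among the lncRNAs of the study's network, MSTRG.24321.5 was listed at 0 in the first 3 d library and at 45.07 and 28.75 FPKM in the other two, with at most 0.19 FPKM on the other days. It fell outside the group through that library. Leaving MSTRG.11050.1 aside, the 5 remaining lncRNAs of the network (MSTRG.4322.1, MSTRG.5205.1, MSTRG.5328.1, MSTRG.12019.1 and MSTRG.21593.1) were at most 0.23 FPKM in every 3 d library, below all their values on the other days. MSTRG.5205.1, for example, had 5.52, 11.12 and 2.66 FPKM at 0 d, 0.20, 0.10 and 0.07 FPKM at 3 d, 1.40, 0.85 and 0.77 FPKM at 6 d, and 3.30, 2.56 and 1.99 FPKM at 9 d.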
